A study of Mus musculus with 36 samples.

Results

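The subject is a set of 10 enteroendocrine genes, the granins Chga and Chgb, the transcription factors Neurog3 and Neurod1, the hormone genes Sct, Cck, Gcg and Gip, the tachykinin gene Tac1 and the serotonin synthesis gene Tph1. They were taken by symbol from a list of enteroendocrine hormones and factors, and all 10 had an identifier among the 52636 genes listed for each library. Members with a mean under 0.5 CPM (read counts as a share of the library total, scaled between libraries by the TMM method) would have been given as not detected, but none was that low. RNA was sequenced from organoids grown from jejunal crypts of C57BL/6 mice and cultured for 2 days in 6 conditions, with 6 libraries of each and 36 in all. Control IgG was added to complete media (IntestiCult), to QCM, to SCM and to complete media containing Wnt5a, and anti-Ptk7 antibody was added to SCM and to the Wnt5a media, so that the groups are complete media + IgG, QCM + IgG, SCM with either and Wnt5a with either. QCM and SCM are serum-free media conditioned by quiescent (serum-deprived) and by senescent (X-ray or doxorubicin treated) mouse embryonic fibroblasts, concentrated and mixed with IntestiCult. Wnt5a is a ligand of noncanonical Wnt signalling, and Ptk7 is a membrane protein of the same pathway. Every culture received either the antibody or control IgG, so no culture was free of immunoglobulin, and complete media or QCM with anti-Ptk7 was not analysed here. Crypts came from 6 mice, whose age and sex the labels do not give, and the labels do not tie a replicate number to a mouse, so p-values measure the spread between these libraries.

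Enteroendocrine cells are the sparse hormone-secreting cells of the gut epithelium. Stem cell progeny enter this lineage through a brief pulse of Neurog3, a basic helix-loop-helix factor, followed by Neurod1, and then settle into cells that release different hormones. Peptides are packed with granins into dense-core granules and released toward the blood or neighbouring nerves when nutrients are sensed, while enterochromaffin cells, a large subclass, make serotonin. Epithelial identity was checked with 8 markers, all of which were tested, and their summed level lay between 8599 and 32128 CPM in every library. Of 9 fibroblast markers none passed the filter on low counts, their summed level lay between 0.0633 and 3.19 CPM, and Col3a1, Dcn and Thy1 had no count in any library. Library totals ran from 9581589 to 21029769 counts with a median of 13490071, and the member counts behind the values ran from 35 in a library (Tph1) to 5599 (Chgb). In bulk RNA fewer enteroendocrine cells and less RNA per cell cannot be told apart.

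The 250 bases before the RefSeq transcription start (GRCm38.p6) are shown for the 5 members that passed the test in at least 1 comparison, namely the lineage factor Neurog3 and the hormone genes Cck, Gip, Sct and Gcg. Neurog3 and Neurod1 bind DNA at E-boxes, so matches to CANNTG are in capitals. The motif reads the same on both strands, and CAGATG with its complement CATCTG, the form preferred by neurogenic factors, is a subset of it. The windows are chr10:62132840-62133089 on the plus strand for Neurog3, chr9:121495695-121495944 on the minus strand for Cck, chr11:96024295-96024544 on the plus strand for Gip, chr7:141279134-141279383 on the minus strand for Sct and chr2:62483654-62483903 on the minus strand for Gcg.
Neurog3: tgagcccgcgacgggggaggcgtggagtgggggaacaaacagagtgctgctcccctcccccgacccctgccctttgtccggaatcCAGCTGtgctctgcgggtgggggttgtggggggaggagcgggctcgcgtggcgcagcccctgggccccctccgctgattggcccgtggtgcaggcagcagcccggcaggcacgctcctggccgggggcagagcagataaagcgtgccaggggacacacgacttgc
Cck: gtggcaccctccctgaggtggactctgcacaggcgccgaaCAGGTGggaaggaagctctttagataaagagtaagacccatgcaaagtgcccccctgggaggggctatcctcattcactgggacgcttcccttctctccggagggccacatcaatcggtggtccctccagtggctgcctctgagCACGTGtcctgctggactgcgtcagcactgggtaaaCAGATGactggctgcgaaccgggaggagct
Gip: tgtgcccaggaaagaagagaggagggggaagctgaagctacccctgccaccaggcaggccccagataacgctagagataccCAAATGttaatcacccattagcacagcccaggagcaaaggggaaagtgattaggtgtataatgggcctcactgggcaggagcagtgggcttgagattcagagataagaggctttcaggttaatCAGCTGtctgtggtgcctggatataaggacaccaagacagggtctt
Sct: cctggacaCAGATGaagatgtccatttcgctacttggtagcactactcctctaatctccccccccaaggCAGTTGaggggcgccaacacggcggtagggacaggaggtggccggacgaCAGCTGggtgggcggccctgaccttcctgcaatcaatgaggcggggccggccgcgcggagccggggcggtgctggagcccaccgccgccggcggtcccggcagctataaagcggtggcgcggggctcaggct
Gcg: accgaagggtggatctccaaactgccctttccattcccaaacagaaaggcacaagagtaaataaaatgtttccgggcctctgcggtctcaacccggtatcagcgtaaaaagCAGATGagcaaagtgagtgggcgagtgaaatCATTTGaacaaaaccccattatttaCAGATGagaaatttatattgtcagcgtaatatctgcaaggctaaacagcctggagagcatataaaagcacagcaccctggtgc
Cck, Sct and Gcg each held 3 E-boxes, Gip held 2 and Neurog3 held 1. The CAGATG or CATCTG form stood at position −30 of Cck, at −242 of Sct and at −139 and −83 of Gcg, counted from the start to the first base of the motif. It was in neither the Gip nor the Neurog3 window. Over all 10 genes, which have 11 windows because Tph1 has an additional start, 9 windows held CANNTG and 4 held CAGATG or CATCTG. Among all 32851 windows of 27025 genes in the same table, 66.2% held CANNTG and 14.4% held CAGATG or CATCTG. A match describes letters in these windows and is not evidence of binding.

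**Figure D1:**
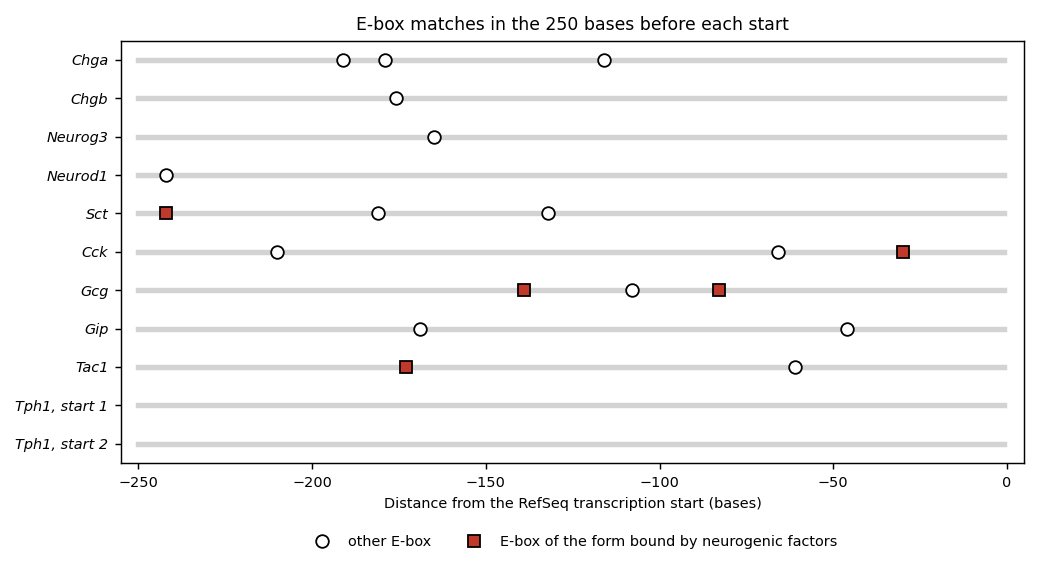
Positions of E-box matches (CANNTG) in the 250 bases before each RefSeq start, with distance from the start in bases on the x axis and 1 line per window. Filled squares mark CAGATG or CATCTG, found in the windows of Sct, Cck, Gcg and Tac1, open circles mark other E-boxes, and both Tph1 windows held none.

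All 10 members were detected in every library. Per kilobase of exon, averaged over the 36 libraries, Gcg was the most abundant at 111 CPM per kb, followed by Chgb at 92.4, Cck at 58.9, Gip at 57.5, Chga at 33.4 and Sct at 14.3 CPM per kb. The factors and the enterochromaffin genes were lower, with Neurog3 at 8.57, Tac1 at 6.94, Neurod1 at 3.75 and Tph1 at 1.38 CPM per kb of exon. Gcg encodes proglucagon, the precursor of glucagon-like peptides in intestinal L cells. Since the study's methods describe counting over coding sequences, levels were also taken per kilobase of coding sequence, an alternative chosen after seeing the data. On that scale Gcg, at 306 CPM per kb, and Tph1, at 6.11 CPM per kb, remained first and last, Cck (140 CPM per kb) passed Chgb (125 CPM per kb), and Tac1 moved from rank 8 to rank 6. Most of the members' RNA came from 2 genes, since Chgb held 36.6% and Gcg 23.9% of their summed CPM.

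**Figure D2:**
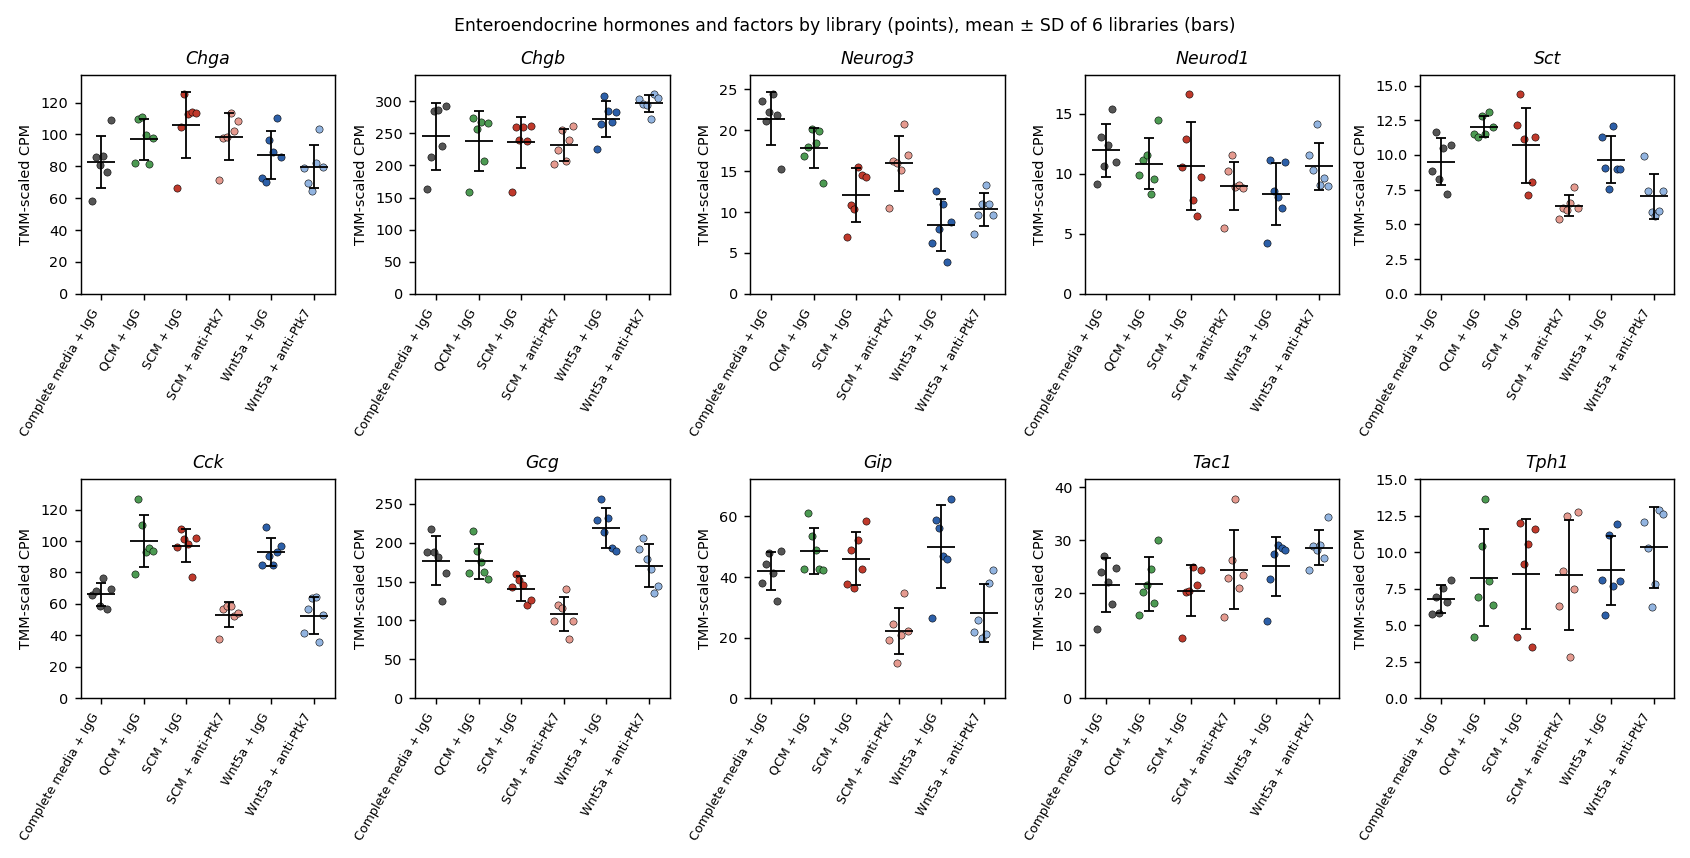
TMM-scaled CPM of each member (y axis, from 0) in each library (points) of the 6 conditions (x axis), with the mean and SD of 6 libraries as bars. Cck and Gip were called lower with anti-Ptk7 in both media and Sct in SCM alone (its edgeR adjusted p in Wnt5a was 0.116). Gcg had uncalled log2 differences of −0.38 and −0.36 with the antibody. Neurog3 falls from a mean of 21.4 CPM in complete media to 8.43 CPM in Wnt5a + IgG. Chga, Chgb, Neurod1, Tac1 and Tph1 gave no call in any comparison.

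Each comparison was tested with edgeR's quasi-likelihood test in 1 model of the 6 conditions, over 15497 genes, and a call required both a Benjamini-Hochberg adjusted p below 0.05 and a fold change above 1.5. Few members were called for any medium. In QCM against complete media 1 of the 10 was higher (Cck), where 0.374% of all genes tested were called and 0.355% were called higher. In SCM against complete media 1 was lower (Neurog3) against 6.08% of all genes called and 1.12% called lower, and in Wnt5a against complete media 1 was lower (Neurog3 again) against 10.2% called and 1.88% called lower. These 3 comparisons share the complete media libraries. In SCM against QCM no member was called by edgeR, 2 had an unadjusted p under 0.05 (Neurog3 and Gcg, against 17% of all genes), and 0.903% of all genes were called. DESeq2 and voom also called none there, while the fit with a replicate block called 1, Neurog3 (adjusted p = 0.0453). That fit called 496 of all 15497 genes, against 140 without the block. In Wnt5a against SCM 1 was higher (Gcg) against 0.69% of all genes called and 0.297% called higher, and 18.9% of all genes had an unadjusted p under 0.05. The 0.69% stands for 107 genes, a number that depended on single libraries. It was 20 genes (9 higher) without Wnt5a + IgG replicate 5, 22 without Wnt5a + IgG replicate 1, 33, 67 and 40 without SCM + IgG replicates 1, 4 and 6, and 179 without Wnt5a + IgG replicate 2. The number called higher, 46, rose to 78 when SCM + IgG replicate 5 was left out and to 71 when Wnt5a + IgG replicate 3 was.

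With anti-Ptk7 the calls were all hormone genes and all lower. In SCM 3 of the 10 were lower (Cck, Gip and Sct), where 1.23% of all genes were called and 0.645% were called lower. In Wnt5a 2 of the 10 were lower (Cck and Gip), where 0.884% of all genes were called and 0.432% were called lower. The median log2 fold change of the 10 members was −0.18 in SCM and −0.00469 in Wnt5a, against 0.00 and 0.01 for all genes tested. The difference between both antibody effects was called by edgeR for no member and for 0% of all genes, with no member and 3.88% of all genes at an unadjusted p under 0.05, and DESeq2 called no member either. Any difference over the 6 conditions, at an adjusted p under 0.05 without a fold-change cutoff, was called for 5 members (Neurog3, Sct, Cck, Gcg and Gip), where 39.5% of all genes were called. Outside these 5, edgeR's adjusted p was 0.0922 for Chga, 0.0982 for Chgb, 0.231 for Tac1, 0.266 for Neurod1 and 0.634 for Tph1. With the replicate block the test called 8 members, adding Chga (adjusted p = 0.0244), Chgb (0.00411) and Tac1 (0.00528). The 39.5% is from the fit without the block, so it is not the share to set beside these 8. The block also called more of all genes, for example 399 in place of 190 with anti-Ptk7 in SCM.

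The numbers of all genes called, against which the members are read, also moved by more than 1.5 times without single libraries in other comparisons. The number called lower in SCM against complete media was 174, and 112 without SCM + IgG replicate 1, and in Wnt5a against complete media it was 291, and 182 without Wnt5a + IgG replicate 1. In QCM against complete media the number was 58, and 38 or 37 without complete media + IgG replicate 3 or 4, while the number called higher went from 55 to 36 without replicate 3 or 5 and to 35 without replicate 4. In SCM against QCM it was 140, and 48, 35 and 47 without QCM + IgG replicates 2, 3 and 4, and 54, 85 and 91 without SCM + IgG replicates 1, 5 and 6. With anti-Ptk7 in SCM it was 190, and 105 without SCM + IgG replicate 1 or 122 without SCM + anti-Ptk7 replicate 2. With anti-Ptk7 in Wnt5a it was 137, and 81 without Wnt5a + anti-Ptk7 replicate 5.

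**Figure D3:**
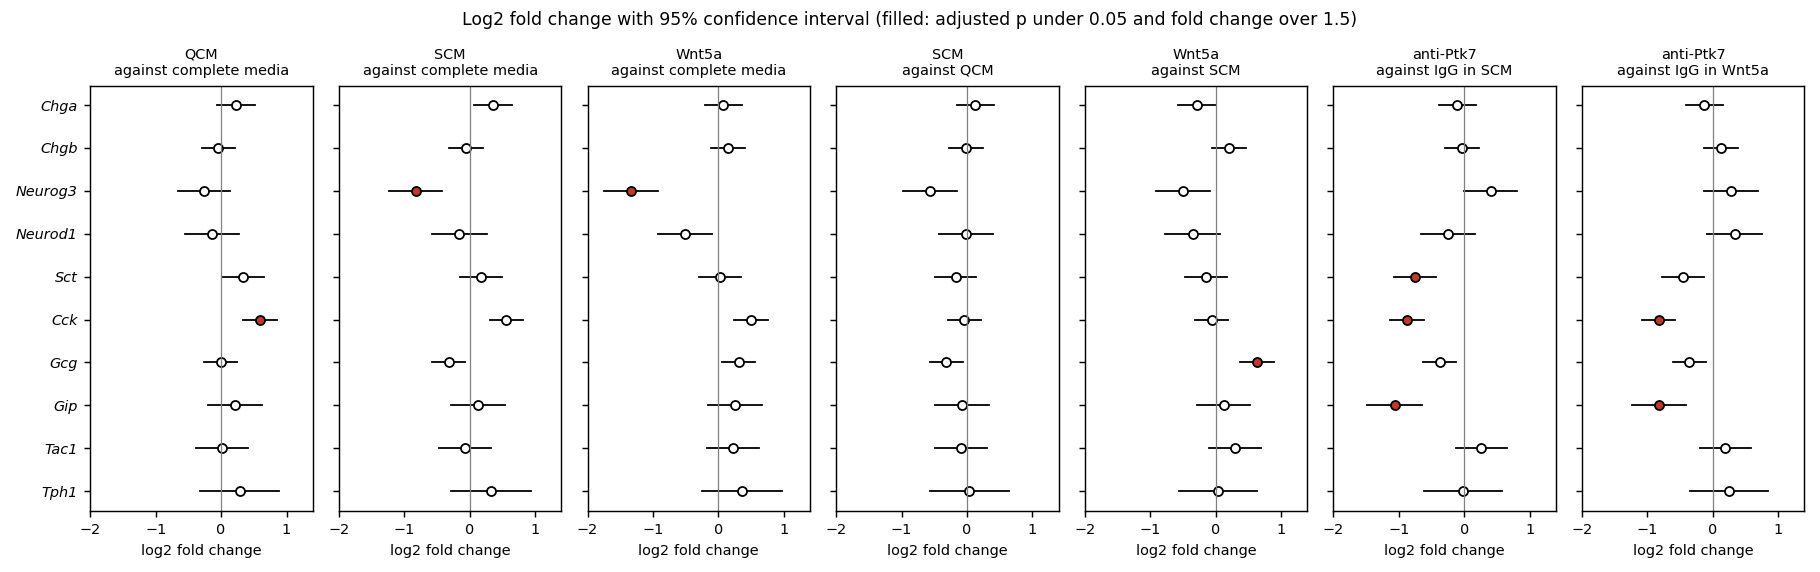
Log2 fold change (x axis) with its 95% confidence interval for each member (y axis) in 7 comparisons (panels). Filled points passed both cutoffs (adjusted p below 0.05, fold change above 1.5), and they are Cck for QCM, Neurog3 for SCM and Wnt5a against complete media, Gcg for Wnt5a against SCM, Sct, Cck and Gip for anti-Ptk7 in SCM and Cck and Gip for anti-Ptk7 in Wnt5a.

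Neurog3 (chr10:62133090-62134763, plus strand, GRCm38), the factor that starts the enteroendocrine programme, was lower in both SCM and Wnt5a than in complete media. In complete media + IgG its CPM had a lowest value of 15.2, a median of 22 and a highest value of 24.4. In SCM + IgG it ran from 6.97 over a median of 12.6 to 15.6 CPM, and in Wnt5a + IgG from 3.93 over 8.41 to 12.6 CPM. The Wnt5a libraries were all below the complete media libraries, whereas 1 complete media library, replicate 6, lay within the SCM range. For scale, 4.81% of all genes had all their Wnt5a libraries below those of complete media. By edgeR's quasi-likelihood test the log2 fold change of Neurog3 was −0.83 in SCM (SE 0.20, adjusted p = 0.00543) and −1.33 in Wnt5a (SE 0.20, adjusted p = 1.38e-05). QCM libraries ran from 13.6 over 18.2 to 20.2 CPM, and the log2 difference from complete media was −0.26 (95% interval −0.66 to 0.14). Against QCM, SCM gave −0.57 (interval −0.97 to −0.16, adjusted p = 0.130 by edgeR), which the test did not pass. With the replicate block in the same test this value was −0.59 (adjusted p = 0.0453), and passed.

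With anti-Ptk7 the Neurog3 values were 10.5, 16.1 and 20.8 CPM (lowest, median, highest) in SCM and 7.31, 10.3 and 13.4 CPM in Wnt5a. These ranges overlap those with IgG. The log2 differences were 0.40 (interval −0.01 to 0.81) in SCM and 0.28 (interval −0.13 to 0.70) in Wnt5a, neither of which passed. In order of mean log2 level the conditions were complete media, QCM, SCM + anti-Ptk7, SCM + IgG, Wnt5a + anti-Ptk7 and Wnt5a + IgG. Of the 5 neighbouring pairs only complete media and QCM differed by more than the larger of their SDs. That rule is not a test, and edgeR's adjusted p for this pair was 0.652. Neurog3 exons overlap those of Fam241b on the opposite strand, and without a stated strand setting such reads cannot be told apart. Fam241b lay between 27.2 and 46.6 CPM in every library and its log2 differences were 0.15 for SCM and −0.04 for Wnt5a against complete media, with adjusted p of 0.422 and 0.842 by edgeR.

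Marker genes of other cell types were also called in these 2 comparisons, in which 6.08% (SCM) and 10.2% (Wnt5a) of all genes were called. Of 7 stem cell markers 1, Smoc2, was lower in each, and the median of their summed CPM was 2406 in complete media (range 1879 to 2499), 1896 in SCM + IgG (1184 to 2153) and 2020 in Wnt5a + IgG (1081 to 2235). Tuft cells are another rare cell type of this epithelium. Of 8 tuft markers, 6 of which were tested, 4 were higher in Wnt5a (Dclk1, Trpm5, Avil and Ptgs1) and 1 in SCM (Ptgs1). Their summed level had a range of 8.34 to 13.5 CPM in complete media, 10.6 to 16.5 CPM in SCM + IgG and 24.3 to 41.1 CPM in Wnt5a + IgG. Pou2f3 (mean 2.65 CPM) and Alox5 (mean 0.337 CPM) were tested and not called in either comparison, and Gfi1b and Il25 were too low to test. Enterocyte markers showed 5 calls of 9 in SCM (4 higher, 1 lower) and 4 in Wnt5a (3 higher, 1 lower), and none of 9 goblet or 8 proliferation markers was called in either comparison by edgeR (1 goblet and 3 proliferation markers had an unadjusted p under 0.05 in each, against 24.7% of all genes in SCM and 33.1% in Wnt5a). Of 6 Paneth markers tested 2, Mmp7 and Ang4, were higher in both. The list's median log2 difference was 0.21 in SCM and −0.20 in Wnt5a. The summed Paneth markers had medians of 4026 CPM in complete media (range 3809 to 4416), 4076 CPM in SCM + IgG (3375 to 4571) and 3721 CPM in Wnt5a + IgG (2065 to 3970). Of the 8 epithelial markers 3 were higher in SCM and 4 in Wnt5a, and their summed CPM had medians of 9484 in complete media, 15461 in SCM + IgG and 15799 in Wnt5a + IgG. The part of these markers in the Neurog3 result was not tested.

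Neurod1 (chr2:79452521-79456751, minus strand), which acts after Neurog3, was highest in complete media, with a lowest value of 9.18, a median of 11.7 and a highest of 15.4 CPM. It was lowest in Wnt5a + IgG, with 4.24, 8.29 and 11.2 CPM. The libraries overlapped in each comparison. The log2 difference between Wnt5a and complete media was −0.51 (SE 0.21, interval −0.93 to −0.09), with an adjusted p of 0.0729 by edgeR that the test did not pass, and no other comparison gave an interval free of 0 for this gene. The difference passed without Wnt5a + IgG replicate 2 (−0.61, adjusted p = 0.0388) and without Wnt5a + IgG replicate 6 (−0.62, adjusted p = 0.0389). Neurod1 exons overlap those of Cerkl on the same strand (mean 0.0574 CPM) and of the lincRNA gene Gm26755 on the opposite strand (mean 0.419 CPM).

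The granins, acidic proteins of the granule core, gave no call. Chga (chr12:102554969-102565028, plus strand) had its lowest mean, 79.7 ± 13.5 CPM (SD, n = 6), in Wnt5a + anti-Ptk7 and its highest, 106 ± 20.5 CPM, in SCM + IgG. Chgb (chr2:132781278-132795079, plus strand) ranged from a mean of 231 ± 24.5 CPM in SCM + anti-Ptk7 to 296 ± 13.5 CPM in Wnt5a + anti-Ptk7. For both genes every neighbouring pair in the order of conditions differed by less than the larger SD. The Chga difference between SCM and complete media was 0.36 on the log2 scale (interval 0.07 to 0.65), with an adjusted p of 0.0977 by edgeR that missed the threshold. For Chgb the 95% intervals of all 7 comparisons lay between −0.31 and 0.47. The test of any difference over the 6 conditions passed for Chga without complete media + IgG replicate 6 (adjusted p = 0.0479), SCM + IgG replicate 1 (0.0213), SCM + anti-Ptk7 replicate 1 (0.0457) or Wnt5a + anti-Ptk7 replicate 5 (0.0421), and for Chgb without complete media + IgG replicate 1 (0.0338). With the replicate block it passed for both, with an adjusted p of 0.0244 for Chga and 0.00411 for Chgb by edgeR.

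Cck (chr9:121489824-121495694, minus strand), the I cell hormone that drives gallbladder contraction and pancreatic enzyme release, was at its highest in QCM, SCM and Wnt5a with IgG and at its lowest in both antibody conditions. In complete media + IgG it had a lowest value of 56.7, a median of 67.1 and a highest of 76.6 CPM. With IgG it ran from 79.2 over 94.4 to 127 CPM in QCM, from 76.8 over 99.7 to 108 CPM in SCM and from 84.9 over 91.7 to 109 CPM in Wnt5a. Each of these 3 groups lay wholly above complete media, as did 1.38%, 3.76% and 6.85% of all genes in the same comparisons. The log2 fold change against complete media was 0.60 in QCM (SE 0.13, adjusted p = 0.0112 by edgeR's quasi-likelihood test), which is 1.51-fold. In the same comparison 3 of 9 enterocyte markers (Alpi, Apoa4 and Fabp1) and 1 of 6 Paneth markers tested (Ang4) were called higher, where 0.374% of all genes were called, and 6 enterocyte and 2 Paneth markers had an unadjusted p under 0.05, against 12% of all genes. The summed enterocyte markers had medians of 4136 CPM in complete media and 5141 CPM in QCM + IgG, and the summed Paneth markers of 4026 and 4777 CPM. The part of these markers in the Cck result was not tested. The Cck log2 fold change was 0.56 in SCM (adjusted p = 0.00255) and 0.50 in Wnt5a (adjusted p = 0.0037), which are 1.47-fold and 1.41-fold and so under the cutoff of 1.5. An adjusted p under 0.05 without that cutoff was reached by 11.9% of all genes in SCM and by 21.8% in Wnt5a. The 3 media hardly differed from one another, with −0.04 for SCM against QCM (interval −0.29 to 0.21) and −0.06 for Wnt5a against SCM (interval −0.31 to 0.19).

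The QCM call stood close to both limits. It was lost without QCM + IgG replicate 2 (log2 0.50, adjusted p = 0.0694) or replicate 3 (0.55, 0.0480), and without complete media + IgG replicate 1 (0.57, 0.0211), replicate 3 (0.55, 0.0525) or replicate 5 (0.54, 0.0499), as well as with 6 other settings in which Cck stayed between 0.57 and 0.58 with an adjusted p under 0.05. Conversely Cck passed in SCM against complete media without SCM + IgG replicate 5 (0.60, 0.00169) or complete media + IgG replicate 4 (0.59, 0.00307).

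With anti-Ptk7 Cck fell in both media. In SCM + anti-Ptk7 the lowest value was 37.6, the median 55.2 and the highest 59 CPM, and in Wnt5a + anti-Ptk7 they were 35.7, 54.6 and 64.6 CPM. In both media all antibody libraries were below all IgG libraries, a pattern held by 0.994% of all genes in SCM and by 1.43% in Wnt5a. The fall was 0.87 on the log2 scale in SCM (SE 0.13, adjusted p = 0.00012) and 0.83 in Wnt5a (SE 0.13, adjusted p = 0.000155) by edgeR's quasi-likelihood test. The antibody effect in Wnt5a less that in SCM was 0.05 (interval −0.31 to 0.41). In order of mean log2 level complete media stood between the IgG media and the antibody conditions, apart from its neighbours on both sides by more than the larger SD. The SCM + IgG libraries serve as controls here and as the treated group above, so both Cck differences share them.

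Gip (chr11:96024545-96030831, plus strand), the K cell incretin, also fell with the antibody in both media. In SCM it ran from 36.5 over a median of 45.8 to 58.5 CPM with IgG and from 11.5 over 21.5 to 34.6 CPM with anti-Ptk7. The antibody libraries in SCM were all below the IgG libraries. In Wnt5a it ran from 26.4 over 51.6 to 65.8 CPM with IgG and from 19.9 over 23.8 to 42.2 CPM with anti-Ptk7, so that the groups overlapped, with replicate 1 the lowest of the IgG libraries. The log2 fold change of Gip was −1.06 in SCM (SE 0.21, adjusted p = 0.00368), a ratio of 0.48, and −0.83 in Wnt5a (SE 0.21, adjusted p = 0.0201), both by edgeR's quasi-likelihood test. The difference between both effects was 0.23 (interval −0.35 to 0.82). Without antibody no medium moved it past the test, and complete media ran from 32.1 over 42.9 to 48.5 CPM. The Wnt5a call was lost without Wnt5a + IgG replicate 6 (−0.73, adjusted p = 0.0637), Wnt5a + anti-Ptk7 replicate 3 (−0.75, 0.0515) or Wnt5a + anti-Ptk7 replicate 4 (−0.76, 0.0531), and when only the groups compared were fitted (−0.83, 0.0965).

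Sct (chr7:141278330-141279133, minus strand), the precursor of secretin, the S cell hormone that elicits bicarbonate secretion, fell with anti-Ptk7 in SCM. With IgG it ran from 7.10 over 11.2 to 14.4 CPM and with the antibody from 5.38 over 6.18 to 7.71 CPM, and the groups overlapped at their edges. The fall was 0.75 on the log2 scale (SE 0.16, adjusted p = 0.00588 by edgeR's quasi-likelihood test), a ratio of 0.59, and it was not called when only the groups compared were fitted (adjusted p = 0.0794). In Wnt5a the values were 7.56, 9.03 and 12.1 CPM with IgG and 5.62, 6.68 and 9.92 CPM with anti-Ptk7. There the difference was −0.46 (interval −0.78 to −0.14), with an adjusted p of 0.116 that did not pass. The effects in both media differed by 0.30 (interval −0.16 to 0.75), so a difference between them was not shown. In QCM Sct lay between 11.3 and 13.1 CPM with a median of 11.8, and in complete media between 7.17 and 11.7 CPM with a median of 9.67, a log2 difference of 0.34 (interval 0.02 to 0.65) with an adjusted p of 0.380 by edgeR.

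Gcg (chr2:62474530-62483650, minus strand) was the only member called between SCM and Wnt5a. In SCM + IgG it ran from 119 over a median of 144 to 160 CPM and in Wnt5a + IgG from 189 over 221 to 257 CPM. All Wnt5a libraries were above all SCM libraries, as for 0.858% of all genes. The log2 fold change was 0.63 (SE 0.12, adjusted p = 0.0109 by edgeR's quasi-likelihood test), or 1.55-fold, and 0.58 (adjusted p = 0.0172), under the fold-change cutoff, without Wnt5a + IgG replicate 2. Complete media, with 125, 185 and 218 CPM, lay between, with log2 differences of −0.32 in SCM (interval −0.58 to −0.07, adjusted p = 0.0852) and 0.31 in Wnt5a (interval 0.06 to 0.56, adjusted p = 0.0716). With anti-Ptk7 Gcg ran from 76.5 over 108 to 141 CPM in SCM and from 136 over 172 to 206 CPM in Wnt5a. The antibody differences were −0.38 in SCM (interval −0.63 to −0.12, adjusted p = 0.0976) and −0.36 in Wnt5a (interval −0.61 to −0.11, adjusted p = 0.116), and neither passed edgeR's test.

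Tac1 (chr6:7554879-7565834, plus strand), the precursor of substance P, and Tph1 (chr7:46644641-46672537, minus strand), the rate-limiting enzyme of serotonin synthesis outside the brain, are both genes of enterochromaffin cells, and neither was called. Tac1 means ran from 20.4 ± 4.81 CPM (SD, n = 6) in SCM + IgG to 28.6 ± 3.35 CPM in Wnt5a + anti-Ptk7. Tph1 means ran from 6.80 ± 0.94 CPM in complete media to 10.3 ± 2.76 CPM in Wnt5a + anti-Ptk7. All neighbouring conditions differed by less than the larger SD for both. The edgeR test of any difference over the 6 conditions gave Tac1 an adjusted p of 0.231, and 0.00528 with the replicate block. With anti-Ptk7 the Tac1 difference was 0.26 in SCM (interval −0.13 to 0.66) and 0.19 in Wnt5a (interval −0.20 to 0.58). For Tph1 the intervals were wide, −0.62 to 0.59 in SCM and −0.36 to 0.84 in Wnt5a, so differences within these ranges are not excluded.

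Some other marker genes were also lower with the antibody. Of 9 enterocyte markers 1, Alpi, was called lower in both media, where 0.645% (SCM) and 0.432% (Wnt5a) of all genes were called lower. Of 6 Paneth markers tested, none was called in SCM and 1 in Wnt5a, while 4 and 5 of them had an unadjusted p under 0.05 (against 17.1% and 15% of all genes) and the list's median log2 difference was −0.37 in SCM and −0.43 in Wnt5a. Lyz1, the lysozyme of Paneth cells, was at −0.54 in SCM (adjusted p = 0.0133 by edgeR, under the fold cutoff) and was called lower in Wnt5a, at −0.63 (adjusted p = 0.00374). Ang4, another Paneth gene, had a positive difference in both media, 0.30 in SCM and 0.39 in Wnt5a, and was not called. The summed Paneth markers had medians of 4076 CPM in SCM + IgG and 3869 CPM in SCM + anti-Ptk7, and of 3721 and 3096 CPM in the Wnt5a pair. None of the goblet, tuft, stem or proliferation markers was called by edgeR in either medium, but 5 of 8 proliferation markers had an unadjusted p under 0.05 in Wnt5a (15% of all genes), with a list median of −0.22. The summed CPM of the 10 members had medians of 727 (range 546 to 752) in SCM + IgG and 599 (473 to 613) in SCM + anti-Ptk7, and of 796 (683 to 828) in Wnt5a + IgG and 693 (671 to 720) in Wnt5a + anti-Ptk7. The part of Alpi and of the Paneth and proliferation markers in the hormone results was not tested. Ptk7 RNA itself does not report on an antibody, and it lay between 4.62 and 28.4 CPM, with a log2 difference of 0.79 in Wnt5a against complete media (adjusted p = 0.0216 by edgeR).

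Beyond the members, 81 genes of the enteroendocrine system were taken as 5 lists, of which 60 were tested. In SCM against complete media 4 of the 60 were called (3 higher, 1 lower), in Wnt5a against complete media 7 (4 higher, 3 lower), in QCM against complete media and in SCM against QCM none, in Wnt5a against SCM 3 (1 higher, 2 lower), with anti-Ptk7 in SCM 1 (lower) and in Wnt5a none. Where edgeR called none, an unadjusted p under 0.05 was reached by 4 of the 60 in QCM against complete media (12% of all genes), by 9 in SCM against QCM (17% of all genes) and by 8 with anti-Ptk7 in Wnt5a (15% of all genes), so none of these counts stands above the share over all genes. The median log2 fold change of the 60 was −0.02 in SCM and 0.04 in Wnt5a against complete media, against 0.01 for all genes in both. Of all genes 6.08% and 10.2% were called in those 2 comparisons, 0.374% in QCM against complete media, 0.903% in SCM against QCM, 0.69% in Wnt5a against SCM, and 1.23% and 0.884% with anti-Ptk7 in SCM and Wnt5a. The 3 called in Wnt5a against SCM were Insm1, Pcsk1n and Cpe. Nothing is read from these counts about the lists as a whole.

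Among 23 other transcription factors of the lineage, 20 tested, 1 was called between 2 conditions. It was called in Wnt5a against complete media and against SCM, beside 10.2% and 0.69% of all genes. Any difference over the 6 conditions was called for 3 of the 20, where 39.5% of all genes were called. Insm1, a zinc finger repressor needed for endocrine differentiation, had 8.14, 12.3 and 15.6 CPM (lowest, median, highest) in complete media, 8.43, 11.6 and 16.3 CPM in SCM + IgG and 3.58, 5.50 and 7.97 CPM in Wnt5a + IgG. The Wnt5a libraries were all below those of complete media, as for 4.81% of all genes, and all below those of SCM + IgG, as for 1.57%. By edgeR's quasi-likelihood test Insm1 fell by 1.06 (log2) in Wnt5a against complete media (SE 0.26, adjusted p = 0.00259) and by 1.08 in Wnt5a against SCM (SE 0.26, adjusted p = 0.0237). The median log2 difference of the 20 factors from complete media was −0.03 in SCM and −0.24 in Wnt5a.

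Among 15 other hormones and peptides, 8 tested, Pyy was called in SCM and in Wnt5a against complete media, beside 6.08% and 10.2% of all genes. The test of any difference over the 6 conditions passed for 3 of the 8, against 39.5% of all genes. Peptide YY is made with glucagon-like peptides in L cells. Pyy had 4.54, 6.67 and 9.91 CPM in complete media (lowest, median, highest), 12, 16.4 and 19.6 CPM in SCM + IgG and 9.14, 12.9 and 21.4 CPM in Wnt5a + IgG. The SCM libraries lay wholly above complete media (as for 3.76% of all genes) and the Wnt5a libraries overlapped them at the edge. By edgeR's quasi-likelihood test the rise was 1.22 on the log2 scale in SCM (SE 0.26, adjusted p = 0.0015) and 1.03 in Wnt5a (SE 0.26, adjusted p = 0.00362). In QCM against complete media none of the 8 was called, and their median log2 difference was 0.45. In SCM against QCM none of the 8 was called or had an unadjusted p under 0.05 (17% of all genes). A Pyy difference between SCM and QCM was therefore not shown. Nts, the neurotensin gene, and Ucn3, the gene of urocortin 3, were chosen after their values were seen, as the 2 of the 8 with an unadjusted p under 0.05 in both antibody comparisons (against 17.1% of all genes in SCM and 15% in Wnt5a), and they differed in opposite directions. Nts had 2.69, 6.96 and 7.84 CPM with IgG and 0.653, 2.78 and 4.13 CPM with anti-Ptk7 in SCM, and 4.2, 6.91 and 7.58 against 0.411, 2.56 and 4.82 CPM in Wnt5a. The log2 differences of Nts were −1.33 (adjusted p = 0.0605) and −1.34 (adjusted p = 0.0622), and edgeR's test did not pass either. Ucn3 had mean CPM of 0.164 ± 0.231 (SD, n = 6) with IgG and 1.70 ± 1.55 with anti-Ptk7 in SCM, and of 0.575 ± 0.70 and 2.30 ± 0.841 in Wnt5a, with 8 of the 36 libraries at 0. Its log2 differences of 3.37 (adjusted p = 0.0532) and 1.95 (adjusted p = 0.254) did not pass edgeR's test.

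Of 23 genes of peptide processing and secretory granules, 20 tested, 2 were called in SCM against complete media (1 higher, 1 lower) and 3 in Wnt5a (2 higher, 1 lower), beside 6.08% and 10.2% of all genes, and the list's median log2 difference was 0.05 and 0.04. Cpe, the carboxypeptidase that trims prohormone fragments, rose by 2.39 on the log2 scale in Wnt5a against complete media (SE 0.39, adjusted p = 3.44e-05). Its CPM ran from 27.7 over 46.4 to 58.9 in complete media, from 45.2 over 72.9 to 179 in SCM + IgG and from 117 over 182 to 502 in Wnt5a + IgG. Cpe was also higher in Wnt5a than in SCM, by 1.31 (adjusted p = 0.0472). Pam, which amidates peptides, rose by 0.87 in Wnt5a (adjusted p = 0.00286). Pcsk1n, an inhibitor of prohormone convertase, rose by 1.38 in SCM (adjusted p = 0.00265), from a median of 0.924 to 2.44 CPM, and its log2 fold change in Wnt5a against SCM was −1.27 (adjusted p = 0.0253). Cpn1, a carboxypeptidase better known from plasma, fell by 1.12 in SCM (adjusted p = 0.00241) and by 0.79 in Wnt5a (adjusted p = 0.0193), all by edgeR's quasi-likelihood test. With anti-Ptk7 in SCM, Snap25, a vesicle fusion protein, fell by 3.13 (SE 0.89, adjusted p = 0.0488), from a median of 1.81 CPM (range 0 to 2.57) to 0.11 CPM (range 0 to 0.356), a change at very low counts.

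Of 7 genes of monoamine synthesis and transport, 6 tested, Gch1 rose and Slc6a4 fell. Gch1, which starts the synthesis of tetrahydrobiopterin, the cofactor of Tph1, had medians of 56.8 CPM in complete media (range 39.9 to 103), 162 CPM in SCM + IgG (113 to 236) and 136 CPM in Wnt5a + IgG (126 to 251). The libraries of both media were all above those of complete media, a pattern held by 3.76% of all genes in SCM and 6.85% in Wnt5a. Gch1 rose by 1.48 on the log2 scale in SCM (SE 0.24, adjusted p = 6.97e-05) and by 1.44 in Wnt5a (SE 0.24, adjusted p = 4.94e-05) by edgeR's quasi-likelihood test. Slc6a4, the serotonin transporter, which enterocytes also carry, fell by 0.87 on the log2 scale in Wnt5a (SE 0.30, adjusted p = 0.0324), from a median of 36.6 CPM (range 28.8 to 53.2) to 24.9 CPM (range 3.86 to 29). Of 13 receptors and channels of nutrient and bile acid sensing 6 were tested, none was called by edgeR in the 7 comparisons of a pair of conditions (0 to 2 of them had an unadjusted p under 0.05, where 12% to 33.1% of all genes did), 2 passed the test of any difference over the 6 conditions against 39.5% of all genes, and their summed CPM lay between 15.4 and 29.8 in every library.

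**Figure D4:**
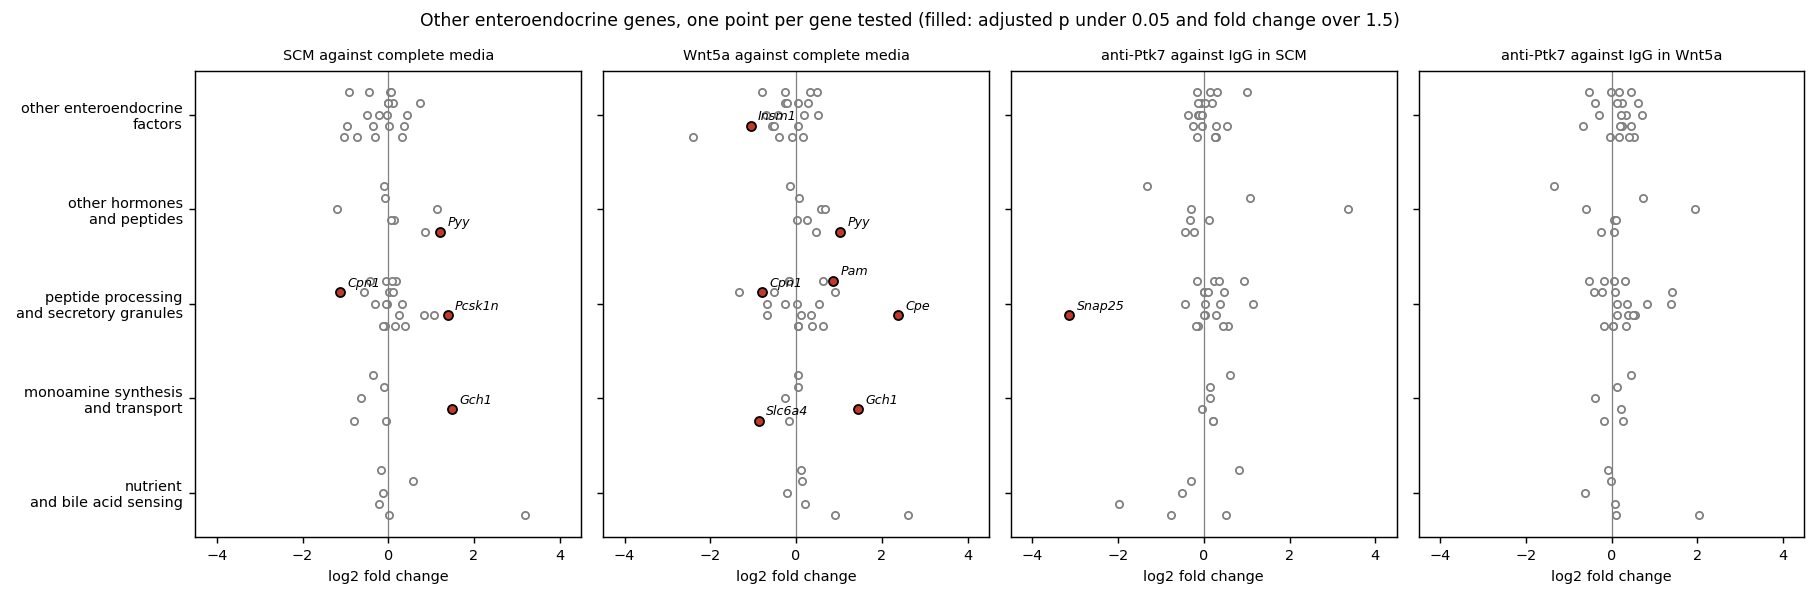
Log2 fold change (x axis) of the 60 tested genes of 5 other enteroendocrine lists (y axis) in 4 comparisons (panels), with 1 point per gene and called genes filled and named. SCM called 3 higher and 1 lower, Wnt5a 4 higher and 3 lower, anti-Ptk7 in SCM 1 lower and anti-Ptk7 in Wnt5a none.

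Within conditions 4 of the 45 pairs of members were correlated, and none of the 4 passed once the replicate number was taken out. Over 36 libraries, the deviations of log2 CPM from the condition means were correlated for 45 pairs of members, with a median Pearson r of 0.14 and a range from −0.24 to 0.70, and 36 pairs were positive. After Benjamini-Hochberg adjustment over the 45 permutation tests, 4 pairs passed and all were positive. Chga and Chgb gave r = 0.70 (permutation p = 6e-05, adjusted 0.00165) and rho = 0.55 (p = 0.00088, adjusted 0.0189), and r = 0.53 without the 2 libraries farthest from the median of Chga. Chga and Tac1 gave r = 0.70 (permutation p = 8e-05, adjusted 0.00165) and rho = 0.53 (p = 0.00192, adjusted 0.0216), and r = 0.56 without the 2 farthest. Chgb and Tac1 gave r = 0.68 (permutation p = 0.00011, adjusted 0.00165) and rho = 0.57 (p = 0.00098, adjusted 0.0189), and r = 0.59 without the 2 farthest. Chgb and Tph1 gave r = 0.55 (permutation p = 0.0003, adjusted 0.00337) and rho = 0.51 (p = 0.00126, adjusted 0.0189), and r = 0.41 without the 2 farthest. None of the pairs of Sct, Cck, Gcg and Gip, the hormones that differed between conditions, passed with Pearson's r. Cck and Gcg came nearest (r = 0.47, permutation p = 0.0108, adjusted 0.0697), and their rho of 0.50 passed (permutation p = 0.00485, adjusted 0.0364), as did that of Chgb and Gip (rho = 0.45, permutation p = 0.00288, adjusted 0.0259). Tac1 with Tph1 (r = 0.16, permutation p = 0.409, adjusted 0.767) and Chga with Tph1 (r = 0.41, permutation p = 0.0218, adjusted 0.123) did not pass.

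These pairs share the replicate number, and the permutations above treat libraries of 1 number as independent. The library with replicate number 1 was the lowest of its condition in 6 of 6 conditions for Tac1, in 5 for Chgb, in 3 for Chga and in 2 for Tph1. With the means of the replicate numbers also removed and libraries permuted within a number, r was 0.45 for Chga and Chgb (permutation p = 0.00977, adjusted 0.22), 0.42 for Chga and Tac1 (p = 0.0155, adjusted 0.232), 0.14 for Chgb and Tac1 (p = 0.513, adjusted 0.666) and 0.48 for Chgb and Tph1 (p = 0.00504, adjusted 0.22). None of the 45 pairs passed in that form. Without the 6 libraries of replicate number 1 (n = 30) the same pairs gave r of 0.32, 0.28, 0.18 and 0.44, with adjusted permutation p of 0.557, 0.557, 0.747 and 0.144. The 1 pair that passed there was Cck and Gcg (r = 0.58, permutation p = 0.00057, adjusted 0.0256), which was at r = 0.19 with the replicate means removed (adjusted permutation p = 0.664).

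**Figure D5:**
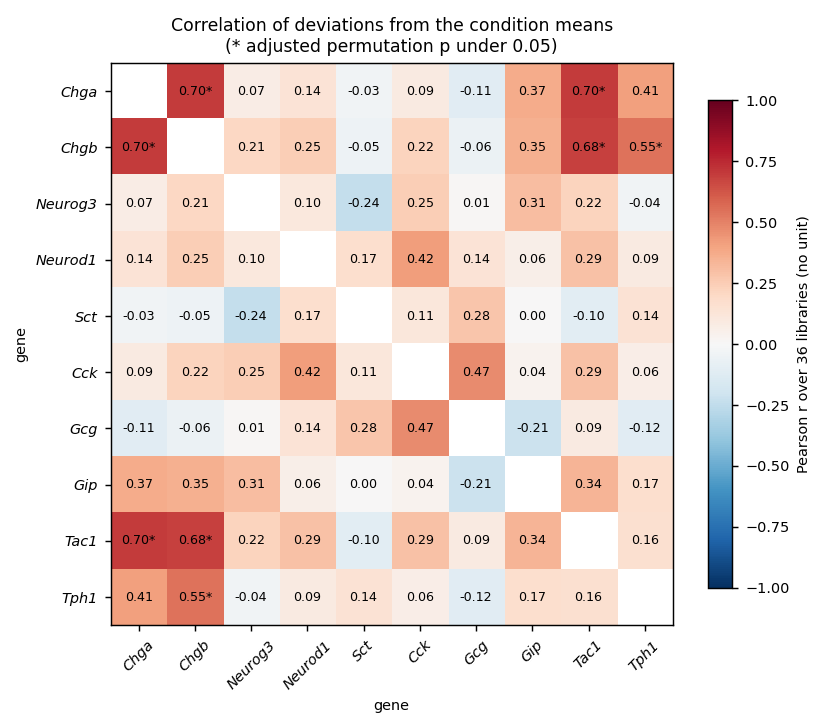
Pearson r of deviations from the condition means over 36 libraries for each of the 45 pairs of members (both axes list the genes, colour gives r without unit). Asterisks mark the 4 pairs with an adjusted permutation p under 0.05, which join Chga, Chgb, Tac1 and Tph1, and none of which passed with the replicate means also removed.

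The genes most like the set as a whole were named by the Pearson correlation of their log2 CPM with the mean z-score of the 10 members over 36 libraries, as a description. They were H1f0 (r = 0.81, rho = 0.76), Isoc2b (0.72, 0.63), Ctdsp2 (0.72, 0.64), Angpt2 (0.71, 0.63), Lrpap1 (0.71, 0.63), Kit (0.71, 0.56), Ppp1r8 (0.70, 0.63) and Ces1d (0.70, 0.60). The members themselves correlated with the score at r between 0.15 for Neurog3 and 0.67 for Gip. None of the 60 other enteroendocrine genes was among the 50 most similar, while with deviations from the condition means 1 was, the somatostatin gene Sst, and 1 of the 8 genes above remained among the first 8. All points share the same libraries and depth, and the score mixes genes that moved in different directions.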

How the data were processed

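RNA from 36 organoid libraries was made into cDNA from 2 ng RNA with Smart-Seq V4, and libraries were prepared with Nextera XT. The authors aligned reads with GSNAP  through HTSeqGenie to mm10 and deposited whole-number counts per gene without normalization. Their methods describe counting reads in coding sequences. The annotation and strand setting are not given in the sources used here. The kit copies whole transcripts and amplifies them without molecular identifiers, so counts include amplification noise. The table of the whole series held the same counts as the per-library files and was not used.

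Groups and replicate numbers came from the labels. Gene identifiers were matched to GENCODE M21 (GRCm38), and 233 had no symbol. The tools were edgeR 4.0.16, DESeq2 1.42.0 and limma 3.58.1, run in R 4.3.3, and Python 3.11.15. Genes were filtered with filterByExpr (15497 kept) and scaled by TMM (factors 0.908 to 1.03), and glmQLFit and glmQLFTest were applied in 1 model of 6 condition means. The study's own test, voom with limma on quantile-normalized values, is an alternative. Calls need a Benjamini-Hochberg adjusted p under 0.05 over all genes tested and a fold change over 1.5. CPM is given as lowest, median and highest or as mean ± SD, and log2 CPM used a prior count of 2. The fits were tested on simulated data. Promoter windows came from RefSeq. No replicate pair matched within sampling noise (lowest chi-square per gene 7.28). Library totals had a median of 13490071 counts.

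The 10 members and the gene lists were chosen with earlier results of these data known. All members are named. From the other enteroendocrine lists the named genes are those called in SCM or Wnt5a against complete media or by anti-Ptk7, up to 4 per list and comparison, with Nts and Ucn3 added after their values were seen. The 8 genes most like the members and Ptk7 are named too. In the order of levels, neighbours within the larger SD of log2 CPM are said to differ by less than that SD, which is a description and not a test. Alternatives were DESeq2, voom with TMM or quantile normalization, RLE factors, library size alone, a fit of only the groups compared, no filter, a mean CPM of at least 1, calls without a fold-change cutoff, the replicate block and each library left out. Coding length and 2 forms of the correlations among members without the replicate number were added after seeing the data.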

Additional observations from a re-analysis of the deposited data

Results flagged for a closer look

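In 60 groups of 6 libraries (10 members in 6 conditions), the gap of the lowest or highest library to its neighbour, as a share of the group's range of log2 CPM, was above the 95% critical value of Dixon's test in 9, where chance gives about 1 in 20 groups. All 9 were low values, and 7 of them were libraries with replicate number 1. In SCM + IgG replicate 1, Chga was at 66.4 CPM (the others 104 to 125), Chgb at 158 CPM (238 to 261) and Tac1 at 11.5 CPM (20.1 to 24.8). In SCM + anti-Ptk7 replicate 1, Chga was at 71.4 CPM (97.8 to 114), Neurod1 at 5.52 CPM (8.86 to 11.5) and Cck at 37.6 CPM (52.1 to 59). In Wnt5a + IgG replicate 1, Tac1 was at 14.7 CPM (22.5 to 29). In SCM + IgG replicate 5, Cck was at 76.8 CPM (96.4 to 108), and in complete media + IgG replicate 6, Neurog3 was at 15.2 CPM (21.1 to 24.4).

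The member calls did not rest on these replicate 1 libraries. With anti-Ptk7 in SCM, Cck was at −0.88 on the log2 scale without SCM + IgG replicate 1 and at −0.79 without SCM + anti-Ptk7 replicate 1, Gip at −1.11 and −1.02, and Sct at −0.71 and −0.71, all with an edgeR adjusted p under 0.05. Neurog3 was at −0.72 in SCM against complete media without SCM + IgG replicate 1 (adjusted p = 0.0207) and at −1.26 in Wnt5a without Wnt5a + IgG replicate 1 (adjusted p = 8.1e-05).

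Gcg also stood out because 2 media differed from each other. Its Wnt5a value less its SCM value, both against the same complete media, was 0.634 on the log2 scale with an edgeR adjusted p of 0.0109, and it was higher in 6 of 6 Wnt5a libraries.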

How the results depend on the processing

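Of 2320 values of a member in a comparison under an alternative, 2287 kept their side of the threshold, 17 lost a call, 16 gained one and none that was called changed sign, while 84 uncalled values had another sign than in the model used. In QCM against complete media the count of members called went from 1 to 0 with DESeq2, voom with TMM, voom with quantile normalization, RLE factors, library size alone and only the groups compared. Without a fold-change cutoff it went from 1 to 2 in SCM and in Wnt5a against complete media (Cck added). With quantile normalization Wnt5a against complete media gave 2, adding Neurod1 (log2 −0.64, adjusted p = 0.0232). With only the groups compared, anti-Ptk7 in Wnt5a gave 1 in place of 2. Leaving out each library gave 0 to 1 members in QCM, 1 to 2 in SCM and 1 to 2 in Wnt5a against complete media, 0 to 0 in SCM against QCM, 0 to 1 in Wnt5a against SCM, 3 to 3 with anti-Ptk7 in SCM, 1 to 2 with anti-Ptk7 in Wnt5a, and 5 to 6 for any difference.

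All conditions carry replicate numbers 1 to 6, which are not tied to mice in the labels. Deviations from the condition means correlated at a mean of 0.092 between libraries of 1 number and −0.018 otherwise. Of 90 same-number pairs 34 were over 0.1, and 16 of 36 libraries correlated best with their own number. Libraries of 1 number were thus more alike on average, and the chance level of these counts was not tested. The numbers were not taken as pairs because the labels do not tie them to mice. The p-values of the model used therefore treat libraries of 1 number as independent. The replicate block raised the number of all genes called in every comparison, for example from 140 to 496 in SCM against QCM. With the replicate block SCM against QCM gave 1 member (Neurog3, −0.59, adjusted p = 0.0453) and any difference over the 6 conditions 8 members in place of 5 (Chga, Chgb and Tac1 added). The replicate block changed no other member's call. In alternatives added after seeing the data, the pairs of members correlated went from 4 to 0 with the replicate means removed and to 1 without the libraries of replicate number 1.

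Over all genes, calls ranged over the alternatives with the fold-change cutoff from 37 to 178 in QCM against complete media (58 in the model used), 659 to 1133 in SCM (942), 1169 to 1745 in Wnt5a (1576), 35 to 496 in SCM against QCM (140), 20 to 259 in Wnt5a against SCM (107), 86 to 399 with anti-Ptk7 in SCM (190) and 81 to 255 in Wnt5a (137). Without the cutoff they were 102, 1842, 3386, 267, 436, 422 and 398. With quantile normalization the split was 550 higher to 297 lower in SCM against complete media (768 to 174 in the model used) and 1015 to 562 in Wnt5a (1285 to 291). Counting error weighs most on Tph1, Sct and Neurod1, the members with the lowest CPM, and the libraries hold no measure of cell numbers.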
